A study of Mus musculus with 8 samples.

Results

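The adrenal medulla of heterozygous (+/-) mice, which carry 1 functional copy of SdhD, was compared with a pool of wild-type (+/+) adrenal medulla on 4 two-colour oligonucleotide arrays, out of 8 arrays in all. The 4 arrays were taken by their genotype label, and all named spots were used. The +/- mice carried a floxed and a null SdhD allele (SdhD flox/-) and no Cre recombinase. SDHD-ESR mice, on the other 4 arrays, carried the same alleles plus Cre-ER, a recombinase that tamoxifen activates and that deletes the floxed allele. The +/+ mice behind the pool carried a floxed and an intact allele (SdhD flox/+) without Cre. All were males on a 129/SvJ background, 10 weeks old, injected at 9 weeks with 100 µg/g tamoxifen daily for 4 days and taken 1 week after the first injection, so the +/- mice and the pool had received the drug too. Each array held RNA of 2 mice labeled with Cy5, and RNA pooled from 8 +/+ mice was labeled with Cy3 on every array. The null allele was inherited and so present in every cell of a +/- mouse, and the medulla was cut free of the cortex by hand. The comparison asks what the loss of 1 SdhD copy does to the transcripts of this tissue.

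Succinate dehydrogenase, mitochondrial complex II, oxidizes succinate to fumarate in the Krebs cycle and passes the electrons to ubiquinone. Sdha holds the flavin and the succinate site, Sdhb holds the iron-sulfur clusters, and Sdhc and Sdhd anchor the complex in the inner membrane. In humans, carriers of 1 mutated SDHD copy can develop pheochromocytoma or paraganglioma, tumors of the chromaffin cells of the adrenal medulla and of related paraganglia, usually after the remaining copy is lost.

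Values are log2 ratios to the +/+ pool on the same array, so that -1 is a halving and 1 a doubling. Their deposited sign was turned, because Sdhd, which is deleted in SDHD-ESR, stood above the pool there as signed in the files, so the side on which Sdhd lies in SDHD-ESR is not a result. A mean of Sdhd near -1.1 in +/- had also served as a check when spots were matched to probe names, so Sdhd is described without a test. The medians over named spots were -0.20, -0.06, 0.23 and 0.36 on +/- replicates 1 to 4, which lie 0.56 apart. Values are therefore given after centring each array on its median unless they are named as deposited. As deposited, the mean of a gene with a value on every array is 0.08 higher in +/- and 0.03 higher in SDHD-ESR, while single arrays shift by their own medians. A gene was counted as higher or lower only where it had a value on all 4 +/- arrays and all 4 were on the same side of 0 in both scalings. Of 18172 genes with 4 values, 2267 (12.5%) were higher and 1610 (8.86%) were lower by this count, which is the background for every list below. The ratios correlated at r = 0.26 to 0.39 between +/- arrays across spots, which share the pool and are not independent replicates. In limma, 0 of 29854 named spots passed an adjusted p of 0.05 against the pool, as deposited (smallest adjusted p = 0.177) or centred (smallest adjusted p = 0.147), while 5913 (19.8%) and 6791 (22.7%) had an unadjusted p of 0.05 or less. The split of these depended on the scaling, with 3649 above 0 and 2264 below as deposited and 3170 above and 3621 below centred. For +/- minus SDHD-ESR, 0 of 28073 spots passed as deposited (4.61% at an unadjusted p of 0.05) and 1 centred (0.00356%), and SDHD-ESR against the pool had 12 as deposited (0.0427%) and 232 centred (0.826%). The +/- and SDHD-ESR ratios share the pool. With all 4 +/- arrays, no gene named below passed the adjusted threshold against the pool. On SDHD-ESR replicate 1, 121 lines of the grid (45.5%) were closer to the line before them on the other arrays than to their own line, against 0 to 10 lines on each other array, and SDHD-ESR means are therefore also given over replicates 2 to 4.

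Sdhd shares its start region with Timm8b, an inner-membrane import factor of mitochondria that is read from the opposite strand. The region is shown because it places the targeted gene against the neighbour nearest to it, at chr9:50603800-50603950 of GRCm38.p6, plus strand, as RefSeq gives it. Capitals mark the 51 bases between the first base of Sdhd, on the left and read leftward, and the first base of Timm8b, on the right and read rightward.
Sdhd-Timm8b: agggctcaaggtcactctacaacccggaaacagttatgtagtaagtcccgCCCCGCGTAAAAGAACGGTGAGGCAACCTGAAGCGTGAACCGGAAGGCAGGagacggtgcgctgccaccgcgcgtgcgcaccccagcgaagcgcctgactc

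Sdhd (NM_025848) stood below the pool on all 4 +/- arrays and was far lower still in SDHD-ESR. As deposited, its log2 ratio was -1.10, -2.25, -0.74 and -0.29 on +/- replicates 1 to 4, against -5.00, -6.19, -5.26 and -4.86 on SDHD-ESR replicates 1 to 4. These are 46.5%, 21.1%, 60.0% and 81.8% of the pool in +/-, so replicate 2 was well below and replicate 4 well above the level of 1 in 2 copies. Centred, the 4 +/- values were -0.91, -2.19, -0.97 and -0.65, and replicates 1, 3 and 4 came closer to each other, at 53.4%, 51.0% and 63.8% of the pool. The mean was -1.09 ± 0.84 as deposited, or 46.8% of the pool, and -1.18 ± 0.69 centred, or 44.2% (SD, n = 4). Without replicate 2 the mean as deposited was -0.71. The 2 slides differed, with means of -1.68 on the slide of replicates 1 and 2 and -0.51 on that of replicates 3 and 4 as deposited, and -1.55 and -0.81 centred. SDHD-ESR averaged -5.33 as deposited, 2.49% of the pool, and the 2 groups did not overlap. The centred difference of +/- minus SDHD-ESR was 4.17.

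No other complex II subunit was below 0 on all 4 +/- arrays. Sdha was above 0 on all 4 +/- arrays in both scalings, at 0.19, 0.06, 0.60 and 1.05 as deposited and at 0.39, 0.12, 0.37 and 0.69 centred, with a centred mean of 0.39 ± 0.24, against 0.60 in SDHD-ESR (0.57 over replicates 2 to 4). Sdhc averaged 0.24 ± 0.21 centred in +/-, with replicate 2 alone below 0, against -0.24 in SDHD-ESR, or 0.14 over replicates 2 to 4. For Sdhb 1 of 2 spots gave no usable ratio, and the other averaged -0.16 ± 0.38 centred in +/- against 0.04 in SDHD-ESR, with signs mixed between arrays. So 1 of the 4 subunits was higher by the count of all 4 arrays, beside 12.5% of all genes. The 1 lower subunit was Sdhd itself, which had served as a check and is not a result of this count. Of the 4 assembly factors, which help to build the complex, Sdhaf2, the factor for the flavin of Sdha, was higher on all 4 arrays, and the centred means lay between -0.04 and 0.29.

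**Figure D1:**
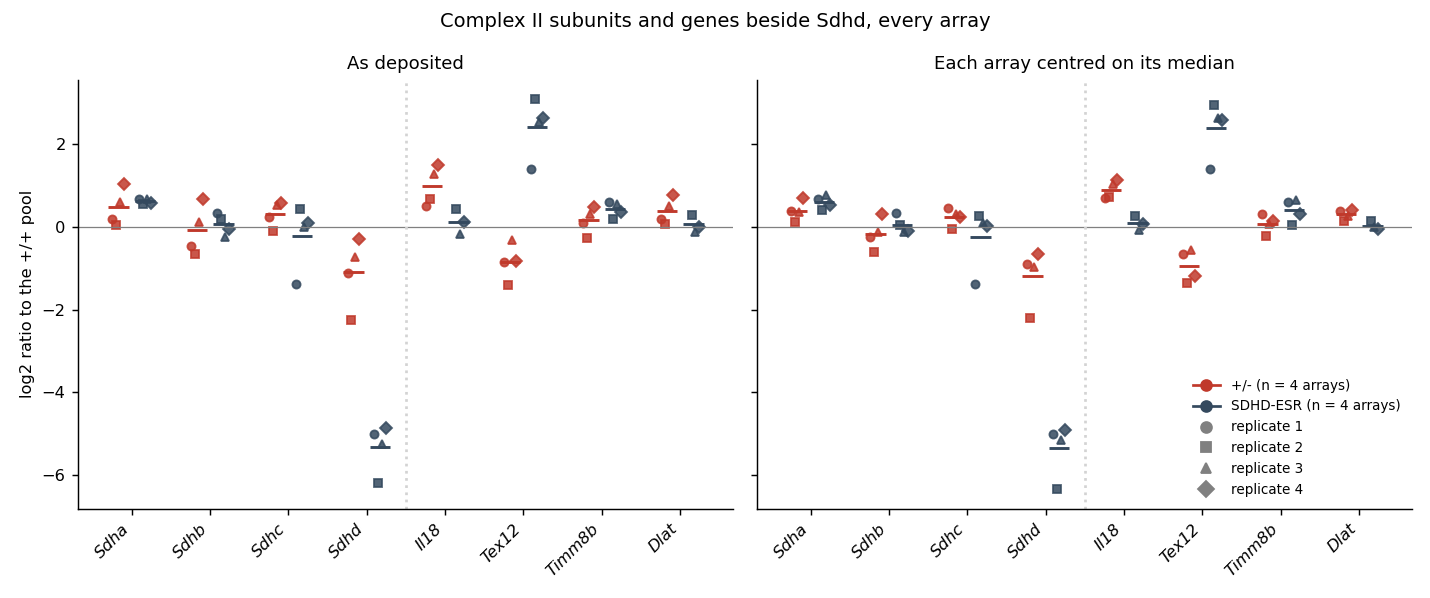
Log2 ratio to the +/+ pool on every array, as deposited (left) and centred on the array median (right), for the complex II subunits and 4 genes beside Sdhd, with +/- in red left of SDHD-ESR in blue and bars at the means. Sdhd lies below 0 in +/- and near -5 in SDHD-ESR, Tex12 lies below 0 in +/- and above 0 in SDHD-ESR, and Il18 in +/- lies above its 3 SDHD-ESR points.

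Genes next to Sdhd on chromosome 9 were read because they are inherited together with the null allele. Of 12 neighbours with values, 2 (16.7%) were higher and 1 (8.33%) lower on all 4 arrays, near the 12.5% and 8.86% of all genes. Il18, which encodes a cytokine of the interleukin-1 family and lies 14498 bases from Sdhd, was higher. Its log2 ratio was 0.50, 0.68, 1.28 and 1.51 on +/- replicates 1 to 4 as deposited and 0.70, 0.74, 1.05 and 1.15 centred, against 0.28, -0.06 and 0.07 centred on SDHD-ESR replicates 2 to 4, with no value on replicate 1. All 4 +/- arrays were above all 3 of these, as for 215 of 16872 genes in all (1.27%). The +/- mean was 0.99 ± 0.48 as deposited and 0.91 ± 0.22 centred (SD, n = 4, adjusted p = 0.137 centred in limma across genes), and the centred difference of 0.81 from SDHD-ESR had an adjusted p of 0.775. SDHD-ESR mice carry the same null allele.

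Tex12, a protein of the synaptonemal complex of meiosis whose gene lies within the span of Il18, was below 0 in +/- and above 0 in SDHD-ESR. Averaged over its 10 spots, it gave -0.85, -1.41, -0.31 and -0.83 on +/- replicates 1 to 4 as deposited, against 1.41, 3.09, 2.53 and 2.64 on SDHD-ESR replicates 1 to 4. All 4 +/- arrays were below all SDHD-ESR arrays in both scalings, as for 91 of 15881 genes in all (0.573%). The +/- means of the single spots ran from -1.31 to -0.59 centred, against 1.58 to 3.01 in SDHD-ESR. Within an array the spots scattered more widely. Centred, they ran from -1.78 to 1.03 on +/- replicate 1, from -3.09 to -0.13 on +/- replicate 4 and from -0.58 to 3.65 on SDHD-ESR replicate 1. The centred +/- mean was -0.94 ± 0.40 (adjusted p = 0.139 in limma across genes). The centred difference of +/- minus SDHD-ESR was -3.33 (adjusted p = 0.154), and it passed the threshold in limma without SDHD-ESR replicate 1, at -3.66 (adjusted p = 0.026). It was 1 of 17666 genes and the only gene that did so, and 1 of its spots was the spot past the threshold after centring with all 8 arrays (adjusted p = 0.0424 in limma). The study had listed Tex12 for SDHD-ESR on these arrays, so its direction there is not independent.

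Dlat, a subunit of pyruvate dehydrogenase, was above 0 on all 4 +/- arrays, with a centred mean of 0.30 ± 0.13. Timm8b, which shares the start region printed above with Sdhd, averaged 0.16 ± 0.33 as deposited and 0.07 ± 0.22 centred in +/-, against 0.40 centred in SDHD-ESR, and replicate 2 was below 0. The remaining 8 neighbours had centred +/- means between -0.66 for Pts, an enzyme of tetrahydrobiopterin synthesis, and 0.25 for Bco2, a carotenoid oxygenase, and 0 of them had all 4 arrays on the same side.

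Interferon-response genes had the lowest centred median of the lists in +/- after the chemosensory receptors. Interferons bind receptors that activate STAT and IRF factors, which act through a promoter motif called the interferon-stimulated response element and switch on antiviral effectors. Of 34 members with values, 10 were lower on all 4 arrays in both scalings and 0 were higher, against the background of 8.86% and 12.5%. The median over members was -0.50 as deposited and -0.58 centred, beside 0.05 and -0.04 over all genes tested. The median was -0.78 centred in SDHD-ESR (-0.70 over replicates 2 to 4). Of 33 members with values on all 8 arrays, 0 had all 4 +/- arrays above or below all SDHD-ESR arrays. Over all genes these shares were 0.655% and 0.573%. The median centred difference of +/- minus SDHD-ESR was 0.16, and both groups were set against the same pool.

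The low values came mostly from 3 arrays. On +/- replicates 1, 2, 3 and 4, the median over the 34 members was -0.80, -0.84, -0.43 and 0.21 as deposited and -0.60, -0.78, -0.66 and -0.14 centred. Replicate 4 was the least low of the 4 in both scalings: 21 members were below 0 on it centred and 11 as deposited, while 34, 32 and 34 were below 0 on replicates 1 to 3 centred. It had the highest of the 4 centred values for 30 of the 34 genes. By slide, the median was -0.71 on the slide of replicates 1 and 2 and -0.45 on that of replicates 3 and 4, centred.

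Promoter stretches of 4 of the 10 genes are shown because they hold the letters by which this family is known. The motif searched was GAAANNGAAA on both strands, in a window of 250 bases before to 50 after each start. It was found in 18 of the 27 list members that RefSeq's table holds (66.7%), in 4 of the 5 that were lower on all 4 arrays, and in 1079 of 27025 genes in all (3.99%). Matches are in capitals, each stretch is printed in the direction of its gene on GRCm38.p6, overlapping matches run together, and TTTCNNTTTC is the same motif on the other strand. The match of Ifih1 lies after the start of the gene, and the matches of Isg15, Ifit1 and Gbp7 lie before it. A match is a description of letters and not of a bound site.
Isg15 at chr4:156200855-156200916, minus strand: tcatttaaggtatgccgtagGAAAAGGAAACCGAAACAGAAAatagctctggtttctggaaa
Ifit1 at chr19:34640765-34640833, plus strand: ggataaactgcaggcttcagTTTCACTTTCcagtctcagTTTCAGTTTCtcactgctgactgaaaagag
Gbp7 at chr3:142530263-142530312, plus strand: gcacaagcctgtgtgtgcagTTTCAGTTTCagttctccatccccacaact
Ifih1 at chr2:62646206-62646243, minus strand: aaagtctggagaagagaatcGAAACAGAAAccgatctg

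Isg15, a ubiquitin-like modifier, had centred log2 ratios of -0.89, -1.36, -1.42 and -0.49 on the +/- arrays, against -1.40, -0.77, 0.37 and -2.07 on the SDHD-ESR arrays. The +/- mean was -1.04 ± 0.44 (adjusted p = 0.139 in limma across genes), and the SDHD-ESR arrays lay on both sides of all of it. Ifit1, which binds foreign RNA, averaged -1.04 ± 0.45 in +/- and -0.71 in SDHD-ESR (-1.08 over replicates 2 to 4). Zbp1, a sensor of Z-form nucleic acid, stood at -1.03, -1.20, -1.21 and -0.68 centred. Its mean was -1.03 ± 0.25 in +/- and -1.10 in SDHD-ESR. The GTPase Mx1, which blocks influenza virus, averaged -0.86 ± 0.23 in +/- and -1.07 in SDHD-ESR, and Usp18, which removes Isg15 from proteins and dampens the receptor, averaged -0.77 ± 0.28 and -0.68. Ifih1, the sensor of long double-stranded RNA, averaged -0.65 ± 0.19 in +/- and -0.80 in SDHD-ESR, and the guanylate-binding protein Gbp7 averaged -0.87 ± 0.50 and -1.43. Each of these 7 genes was below 0 on all 4 +/- arrays in both scalings, as were Xaf1, Gbp6 and Mx2. Oasl1, a relative of the RNA-sensing OAS enzymes, averaged -0.57 ± 0.15 centred and was at 0.01 on replicate 4 as deposited. Irf7, the factor that amplifies the interferon response, averaged -1.38 ± 0.85 centred and was at 0.12 on replicate 4 as deposited.

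**Figure D2:**
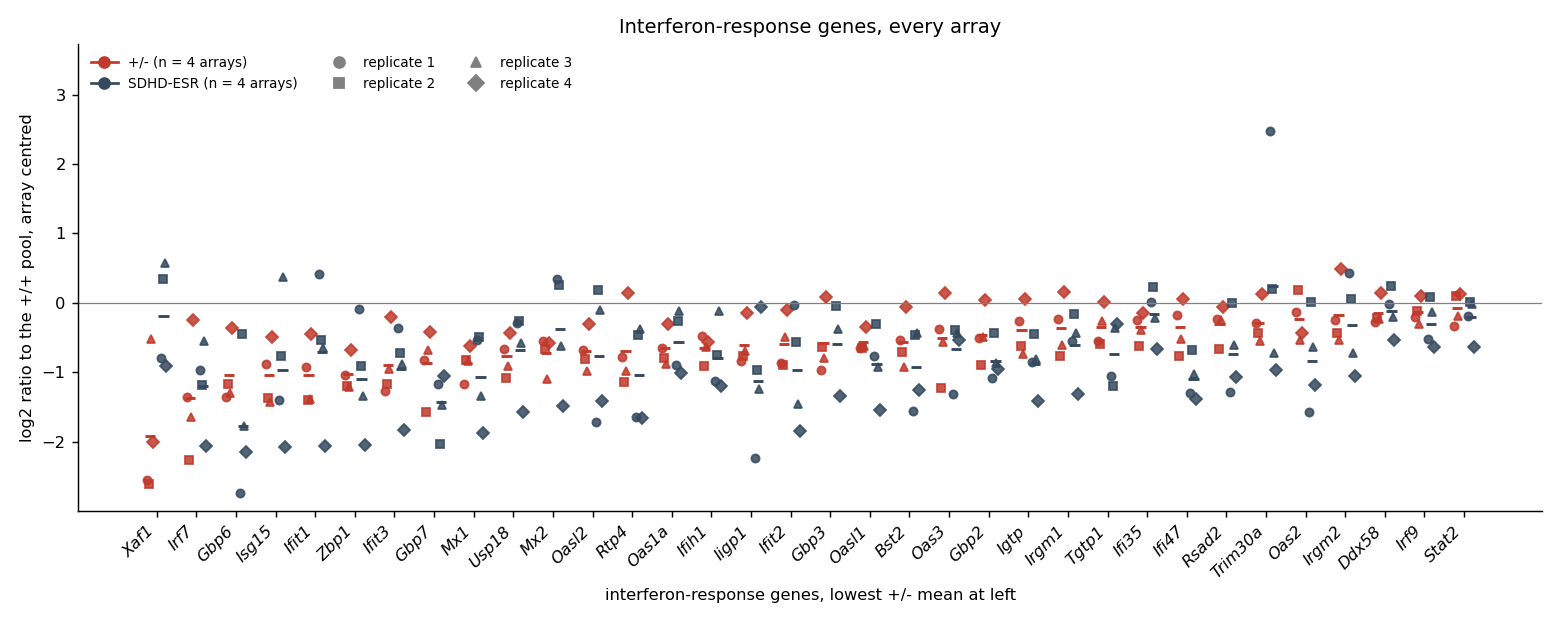
Centred log2 ratio to the +/+ pool of 34 interferon-response genes on every array, ordered by the +/- mean, with +/- in red left of SDHD-ESR in blue and bars at the means. Most +/- points lie below 0, and replicate 4 (diamonds) lies highest among the 4 for most genes.

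Genes of immune cells were read beside the interferon-response genes. Over the pan-leukocyte genes the centred median was -0.13 in +/- against -0.60 in SDHD-ESR, and 0 of 14 were higher or lower on all 4 +/- arrays. For the macrophage genes the medians were -0.03 (0.06 as deposited) and -0.46, with 1 of 18 higher (5.56%, beside 12.5% of all genes), the lysosomal protease Ctss. Of the 14 macrophage genes with a value on all 8 arrays, 4 (C1qa, Fcer1g, Ms4a7 and Tyrobp) were above all SDHD-ESR arrays on all 4 +/- arrays, beside 0.655% of all genes (104 of 15881). The study had reported C1qa, Fcer1g and Tyrobp for SDHD-ESR on these arrays, so this count is not independent. For T and B cell genes the medians were -0.30 and -0.51, and 2 of 12 (16.7%) were lower in +/-, beside 8.86% of all genes. The 2 were Cd3d, a chain of the T cell receptor complex, and Pax5, a factor of B cells. The centred medians of the T and B cell list were below 0 on every +/- array, at -0.58, -0.33, -0.28 and -0.29 on replicates 1 to 4. The antigen presentation genes had a median of -0.15 in +/- and -0.45 in SDHD-ESR, with 0 of 8 higher or lower. No difference between these lists and the interferon-response list was tested. In bulk tissue, fewer cells of a type and less RNA per cell cannot be told apart, and the part of these cells in the interferon-response values was not tested.

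Genes of cholesterol and fatty acid synthesis, enzymes and regulators, went both ways in +/-, and most met neither count. Of 18 with values, 5 were lower (Idi1, Lss, Insig1, Nsdhl and Sqle) and 2 higher (Elovl6 and Srebf1) on all 4 arrays. These are 27.8% and 11.1%, beside 8.86% and 12.5% of all genes. The centred median was -0.24, against 0.01 in SDHD-ESR (-0.17 over replicates 2 to 4). Idi1, which makes the building block of the isoprenoid chain, had -0.48, -0.84, -0.84 and -0.73 centred, with a mean of -0.73 ± 0.17, against 0.04 in SDHD-ESR and -0.38 over replicates 2 to 4. Insig1, which holds the sterol sensor in the endoplasmic reticulum and is itself a target of the pathway, averaged -0.66 ± 0.40 in +/-, and Lss, which closes the sterol rings, averaged -0.49 ± 0.25. Cyp51, which removes a methyl group from the sterol ring, averaged -0.65 ± 0.32 centred and was at 0.04 on replicate 4 as deposited. Sqle, the first oxygen-using enzyme of sterol synthesis, averaged -0.33 ± 0.32 in +/- (-0.19 without replicate 4), against 0.28 in SDHD-ESR. Elovl6, which lengthens C16 fatty acids, stood at 0.48, 0.44, 0.29 and 0.75 centred in +/-, against 0.45, -1.04, -0.91 and -0.87 in SDHD-ESR. Its mean was 0.49 ± 0.19 in +/- and -0.94 over SDHD-ESR replicates 2 to 4. All +/- arrays were above those 3, as for 215 of 16872 genes in all (1.27%).

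Fasn and Scd1, the enzymes that make and desaturate fatty acids, were set apart by replicate 2. Fasn had 0.62, -2.50, 0.06 and 0.87 centred on the +/- arrays, against -1.90, -1.95, -2.52 and -2.22 on the SDHD-ESR arrays, and Scd1 had 0.85, -2.49, 0.37 and 0.53 in +/-, against 0.70, -2.20, -2.39 and -2.37 in SDHD-ESR. On +/- replicate 2 both were as low as on SDHD-ESR replicates 2 to 4, and on the other 3 +/- arrays both were above 0. The adipose marker genes were low on the same array. Their median was 1.30, -1.19, 0.34 and 0.64 centred on +/- replicates 1 to 4, and all 14 had their lowest +/- value on replicate 2. The part of adipose tissue in these values was not tested.

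Of 8 chromaffin transcription factors and Ret, 4 (50%) were higher on all 4 arrays and 0 lower, beside 12.5% and 8.86% of all genes. The 4 were Insm1, Gata3, Hand2 and Isl1, all factors that set or keep the fate of these cells. The list's median was 0.45 centred and 0.54 as deposited, beside -0.04 and 0.05 over all genes. Insm1 had 0.74, 1.11, 0.91 and 0.65 as deposited and 0.93, 1.17, 0.68 and 0.29 centred, with a centred mean of 0.77 ± 0.37 (adjusted p = 0.144 in limma across genes), against 0.24 in SDHD-ESR and 0.53 over replicates 2 to 4. Gata3 averaged 0.47 ± 0.24, Hand2 0.65 ± 0.39 and Isl1 0.38 ± 0.38 in +/- (0.20 for Isl1 without replicate 1), and the centred medians of the list were 0.90, 0.66, 0.61 and 0.04 on replicates 1 to 4, the last near the median of all genes. Of 9 granins and neuropeptides, 3 (33.3%) were higher, beside 12.5% of all genes. The 3 were Pcsk1n, an inhibitor of the prohormone convertase Pcsk1, Pcsk1 itself and Penk, which encodes proenkephalin. Penk averaged 0.65 ± 0.49 in +/- (0.42 without replicate 1) and 0.04 in SDHD-ESR. The members' means reached down to -1.14 for Vip, a neuropeptide, and the list's centred medians were 0.88, -0.00098, 0.37 and 0.05 on +/- replicates 1 to 4, so replicates 2 and 4 were near 0.

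Of 11 genes of catecholamine synthesis and handling, 3 were higher on all 4 arrays and 0 lower, beside 12.5% and 8.86% of all genes. The list's centred medians were 0.40, 0.20, 0.21 and -0.04 on +/- replicates 1 to 4. The members' centred means ran from -0.66 for Pts, also a neighbour of Sdhd, to 0.58 for Slc18a1. Ddc, which makes dopamine from DOPA, averaged 0.31 ± 0.17 centred in +/- and 0.05 in SDHD-ESR. Maob, which breaks down amines, averaged 0.42 ± 0.39, with replicate 1 at 1.01 and the other 3 between 0.20 and 0.27, and 0.23 without replicate 1. Gch1, the first enzyme of tetrahydrobiopterin synthesis, averaged 0.27 ± 0.20 in +/- (0.18 without replicate 1) and 0.82 in SDHD-ESR, and all 4 +/- arrays were below all SDHD-ESR arrays, as were 0.573% of all genes (91 of 15881). Whether the gene that limits the pathway, Th, changed cannot be read here: Th and Dbh, and with them the granins Chga and Chgb, had only spots within 0.01 of 0 on 2 or more +/- arrays and gave no usable ratio. This was so for 453 genes of the array, among them the cortex genes Star, Cyp11a1 and Cyp11b1, so the tissue label could be checked against only part of its markers. Of 6 cortex genes with values, 1 was higher in +/-, the ACTH receptor Mc2r, and the list's median was 0.14 centred, against 0.15 in SDHD-ESR. As deposited the +/- median of this list was 0.22, and it was -0.0016 where spots near 0 were kept. Of 13 endothelial genes, 4 were higher on all 4 arrays and 0 lower, beside 12.5% and 8.86% of all genes, and the list's centred medians were 0.27, 0.37, 0.09 and -0.0068 on replicates 1 to 4, so replicate 4 was not raised. Cdh5, the cadherin of endothelial junctions, averaged 0.58 ± 0.31 in +/- and 0.11 in SDHD-ESR, and Kdr, the main receptor for Vegfa, averaged 0.32 ± 0.15 and 0.09.

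**Figure D3:**
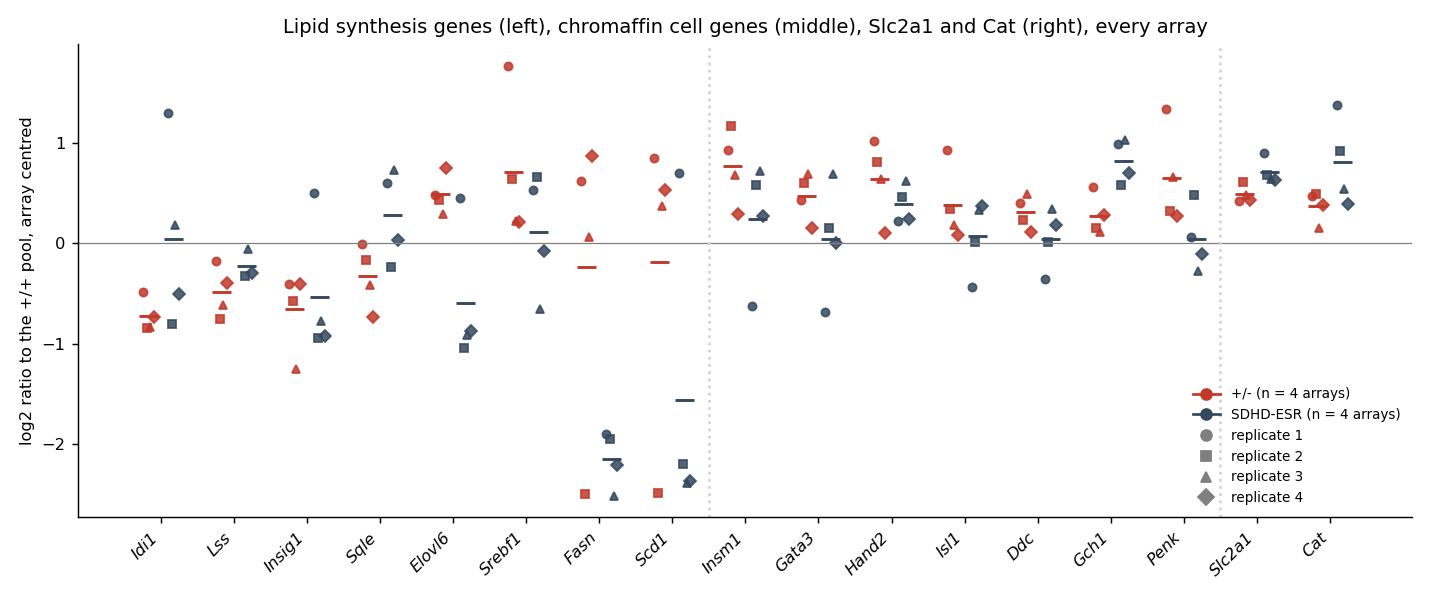
Centred log2 ratio to the +/+ pool on every array for lipid synthesis genes (left), chromaffin cell genes (middle) and Slc2a1 and Cat (right), with +/- in red left of SDHD-ESR in blue and bars at the means. Idi1, Lss, Insig1 and Sqle lie below 0 in +/-, and Fasn and Scd1 are near -2.5 on replicate 2 alone among the +/- arrays. The chromaffin genes shown were picked by their +/- values, so that most of their +/- points lie above 0 follows from the choice. Vip (centred +/- mean -1.14) and Pts (-0.66) are not shown.

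In the Krebs cycle, respiratory chain, glycolysis and hypoxia lists, each with 1 member higher and 0 lower, the share higher was below the background of 12.5%. Loss of complex II activity lets succinate accumulate, and succinate can inhibit the dioxygenases that use 2-oxoglutarate, among them the prolyl hydroxylases that mark hypoxia-inducible factors for destruction. Of 18 targets of these factors outside glycolysis, 1 was higher on all 4 arrays, the mitophagy receptor Bnip3l, with a centred mean of 0.26 ± 0.08 in +/- and 0.23 in SDHD-ESR. Vegfa, the main angiogenic target, had -0.47, 0.14, -0.09 and -0.06 centred on the +/- arrays and averaged -0.12 ± 0.25, against -0.18 in SDHD-ESR, with a 95% interval for the +/- mean of -0.47 to 0.23. Of 16 glycolysis and lactate genes, 1 was higher, Slc2a1, the glucose transporter Glut1. Its log2 ratio was 0.23, 0.56, 0.72 and 0.79 as deposited and 0.43, 0.62, 0.49 and 0.43 centred in +/-, a mean of 0.49 ± 0.09 (adjusted p = 0.139 in limma across genes), against 0.90, 0.68, 0.64 and 0.64 centred in SDHD-ESR. The groups did not overlap centred but did as deposited, and the centred difference of -0.22 had an adjusted p of 0.834.

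Of 9 Krebs cycle enzymes with usable ratios, 1 was higher, Dlst, the succinyl transferase of the 2-oxoglutarate dehydrogenase complex, at 0.31 ± 0.16. Of 32 named complex I subunits 15 gave no usable ratio, as did 17 of 33 of complexes III, IV and V. Among the rest, complex I and complexes III, IV and V each had 1 member higher, Ndufa9 among 17 and Atp5j among 16, and 0 lower. Their centred medians were 0.16 and 0.10, and the means of their members lay between -0.03 and 0.27 and between -0.04 and 0.35. As deposited the medians were 0.25 and 0.18, and 0.07 and 0.02 where spots near 0 were kept. Of the 22 dioxygenases, 3 were higher, the histone demethylases Kdm5b and Kdm5c and the RNA demethylase Alkbh5, and 0 were lower, near the background of 12.5%. Kdm5b averaged 0.31 ± 0.15 in +/- and 0.30 in SDHD-ESR. Among 12 NRF2 targets, the genes of the antioxidant response, 4 (33.3%) were higher on all 4 arrays, beside 12.5% of all genes. The 4 were Cat, Gclc, Gsr and Txnrd1, while the list's median was -0.05 centred and 0.04 as deposited. Cat, which encodes catalase, averaged 0.38 ± 0.16 in +/- and 0.81 in SDHD-ESR. Cdkn1a, the cell cycle inhibitor p21 and a p53 target, averaged 0.14 ± 0.25 as deposited and 0.06 ± 0.38 centred in +/-, against 1.53 centred in SDHD-ESR (1.59 over replicates 2 to 4). Its 4 +/- arrays were below all SDHD-ESR arrays, as for 0.573% of all genes (91 of 15881). The study had listed Cdkn1a for SDHD-ESR on these arrays, so this separation is not independent. The +/- signs of Cdkn1a were mixed, at 0.51, 0.13, -0.41 and 0.00 centred. The study's own list for SDHD-ESR, which was chosen on these arrays and is not independent, had 8 of 19 members below and 2 above all SDHD-ESR arrays on all 4 +/- arrays, beside 0.573% and 0.655% of all genes, which says nothing of its own since members were picked for this contrast, while against the pool 1 was higher and 1 lower in +/-.

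**Figure D4:**
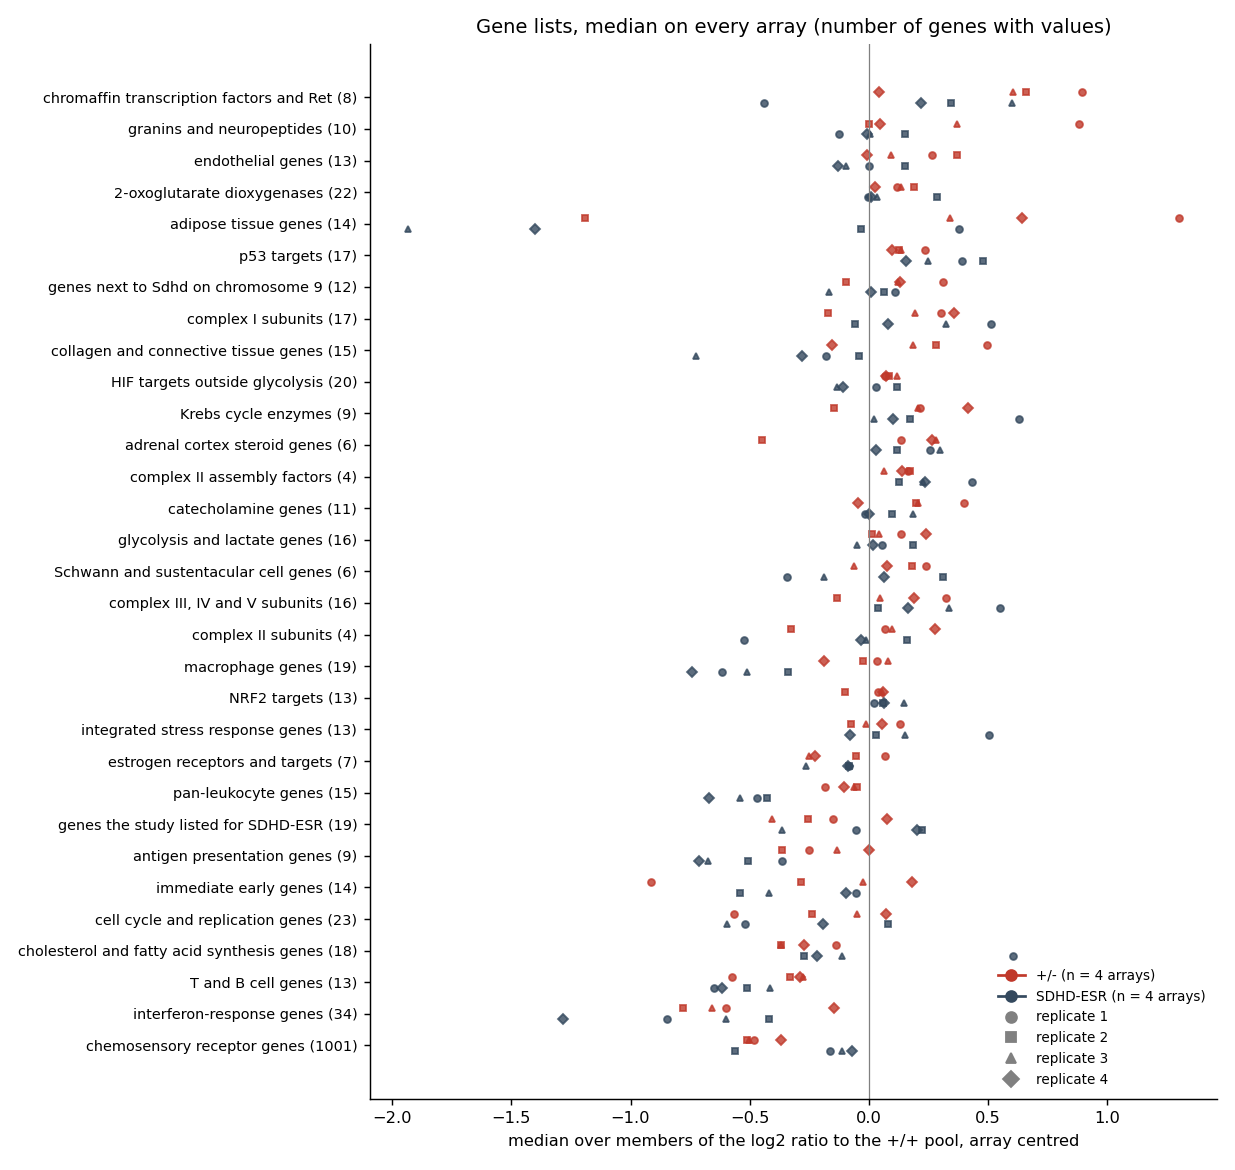
Median over members of the centred log2 ratio to the +/+ pool for each gene list on every array, with the number of genes with values in brackets, +/- in red above SDHD-ESR in blue. The interferon-response and chemosensory receptor lists lie lowest in +/-, the chromaffin transcription factors highest, and the adipose list spans -1.19 to 1.30 in +/-.

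Among the single genes with the smallest p, none was past the threshold. On the high side after centring these were Slc1a4, a neutral amino acid transporter, Il15ra, the receptor chain that presents interleukin 15, Igsf9, Parp4 and Psme3, a proteasome activator. Slc1a4 had 0.85, 1.08, 0.82 and 0.99 centred on the +/- arrays (adjusted p = 0.147 in limma), close to each other, against 1.06, 0.83, 0.44 and 0.95 on the SDHD-ESR arrays. As deposited they were Mycn, a factor of neural crest growth, Iqsec3, Irs1, Sema5a and Pdgfra. Mycn, picked by these +/- values, had 1.07, 0.94, 0.86 and 0.85 on the +/- arrays, against -0.31, 0.00, 0.08 and 0.60 on the SDHD-ESR arrays. The groups did not overlap as deposited, and the share of all genes that separate in this scaling alone was not counted. Centred, Mycn had 1.26, 1.00, 0.62 and 0.49 in +/-, against -0.31, -0.15, 0.19 and 0.55 in SDHD-ESR, and SDHD-ESR replicate 4 lay above +/- replicate 4. On the low side Ccdc60 had -3.41, -2.84, -2.97 and -3.61 centred in +/- and no value in SDHD-ESR, and the bitter taste receptor Tas2r103 had -1.92, -1.80, -2.05 and -2.23 in +/-, against -0.43, -0.03, -1.17 and 1.03 in SDHD-ESR. Chemosensory receptors as a class, the odorant, vomeronasal, taste and trace amine receptors, whose known site of expression is sensory epithelium, were low too. Of 1001 tested, 699 had values on all 4 arrays, and 154 of these (22.0%) were lower and 7 (1.00%) higher. Over all genes these shares were 8.86% and 12.5%. The median over the 1001 receptors was -0.62 centred, against -0.33 in SDHD-ESR, and this list was chosen after its values were seen.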

How the data were processed

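For each array the authors deposited 45220 spot values without gene names, log ratios between the sample dye (Cy5) and the pool dye (Cy3) on Agilent Mouse GE 4x44K V2 slides. The deposited columns also hold whole numbers outside the scale of a log2 ratio, and log base, background correction and dye normalization were not given in the sources used here. Base 2 was read from the files: of ratios with an antilog of 2.5 to 100, 9.30% were whole-number antilogs in base 2, against 0.0502% in base e and 0.0129% in base 10 (tolerance 0.0001). No dye swap was made, so ratios against the pool keep dye bias and leave out the spread among +/+ mice. Each replicate is 2 mice, and depth does not apply to arrays, whose number limits the precision.

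Probe names were placed through the geometry of the grid, in which the median SD within copies of 387 accessions was 0.195, against 0.790 in the annotation's order. Every value was multiplied by -1, because Sdhd stood above the pool in the deposited sign in SDHD-ESR, where it was deleted, so the direction rests on Sdhd alone. Whole numbers (9.54% to 13.9% of values on +/- arrays) were dropped as missing. Of 33026 named spots, 29854 with at least 3 +/- values were tested with limma 3.58.1 in R 4.3.3 (lmFit, eBayes, mean against 0, Benjamini-Hochberg). For genes, spots were averaged after leaving out those within 0.01 of 0 on 2 or more +/- arrays, which left 20052 genes; this step was chosen after the values were seen. Python 3.11.15 with numpy 2.4.6, pandas 2.3.3, scipy 1.17.1 and matplotlib 3.10.9 did the rest. The fit was also run on simulated independent noise with planted changes, as a check of their size and sign. That setting has no shared pool or dye bias, so it does not check the calls made here.

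Genes were named by a rule: complex II and neighbour genes, called genes at each end (filled to 5 by smallest p where fewer were called), up to 4 members of each list by smallest p, and the study's list. Other genes, such as Isg15, Ifit1, Usp18, Gbp7, Xaf1, Irf7, Insig1, Sqle, Srebf1, Scd1, Isl1, Vegfa and Kdm5c, were chosen after their values were seen. Members and lists were chosen with earlier results of these data known. Alternatives covered centring, missing values, whole numbers, spots near 0, quantile normalization, blocks, tests and left-out arrays.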

Additional observations from a re-analysis of the deposited data

Results flagged for a closer look

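Averaged over its spots, Tex12 stood on opposite sides of 0, below it on all 4 +/- arrays and above it on all 4 SDHD-ESR arrays in both scalings. The centred difference of +/- minus SDHD-ESR was -3.33, with an adjusted p of 0.154 in limma across genes. Among 73 groups of 4 values looked at (genes and lists), 3 had a value set apart from the other 3 by a gap above the critical value of Dixon's test, which chance gives in about 1 of 20 groups. Scd1 had -2.49 on +/- replicate 2 centred, with the other 3 between 0.37 and 0.85. Maob had 1.01 on +/- replicate 1, with the other 3 between 0.20 and 0.27. The median of the NRF2 targets was -0.10 on +/- replicate 2, and 0.04 to 0.06 on the other 3.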

How the results depend on the processing

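The count of 0 spots against the pool was the same under all alternatives in +/-, as deposited and centred, except for the methods' t-test after centring, which called 2 spots, both higher. With the spots of a gene averaged, limma called 0 genes in both scalings, except as deposited without replicate 3, where 5 were lower (Saa3, Dppa2, Il1f5, D830046C22Rik and Vmn1r30, smallest adjusted p = 0.0475). For +/- minus SDHD-ESR, 0 spots were called as deposited, 1 after centring and 1 gene, centred, without SDHD-ESR replicate 1; leaving out each array gave 0 to 0 spots as deposited. SDHD-ESR against the pool gave 12 spots as deposited, 232 after centring, 1 with the replicate block and 1 with the slide as a block, and 0 to 2 without each array in turn. Same-numbered arrays of the groups lay on the same slide, and their deviations correlated weakly (r = 0.07, 0.12, -0.00099 and 0.03 for numbers 1 to 4). These values, 1 of them from SDHD-ESR replicate 1 with its lines closer to the line before, cannot settle whether the samples were paired. The replicate block gave 0 calls in +/- in both scalings. Sdhd kept its sign in all alternatives run, with means of -1.36 to -0.71 as deposited without each replicate. Since Sdhd had served as a check, its sign is not support of its own. Without each replicate in turn, the centred mean was -0.0036 to 0.17 for Timm8b and -0.091 to 0.21 for Cdkn1a (each below 0 without replicate 1), and -0.61 to 0.52 for Fasn and -0.53 to 0.58 for Scd1 (each above 0 without replicate 2). The other 332 single-gene alternatives kept direction and side, but without replicate 1 Srebf1 moved to 0.36, against 0.71 with all 4 arrays. Keeping the spots near 0 moved the medians as deposited from 0.41 to 0.18 for the granins and neuropeptides, from 0.26 to 0.14 for the adipose genes, from -0.06 to -0.00043 for antigen presentation and from 0.04 to -0.0010 for the NRF2 targets. In 178 alternatives a list median moved by no more than the SD between arrays. Leaving out 1 of 4 arrays seldom moves a median that far, so this says little about stability. As deposited, some medians changed sign without single replicates. Among others, they ran from -0.33 to 0.11 for cell cycle, -0.31 to 0.13 for immediate early, -0.26 to 0.07 for antigen presentation and -0.11 to 0.06 for pan-leukocyte genes. The median of the catecholamine genes, 0.20 as deposited, was 0.14 to 0.40 without each replicate (0.36 without replicate 1 and 0.40 without replicate 2). The causes were not tested. The number of arrays limits every value: genes with ratios near 0 or whole numbers have no level here.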
